A study of Homo sapiens with 6 samples.

Results

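The 26S proteasome is the protease that degrades ubiquitin-tagged proteins in the cytosol and nucleus. Its genes were followed here in the human cell line HBMEC, labelled as brain microvascular endothelium, under OGD/R. In this culture model of stroke, which stands for oxygen-glucose deprivation and reperfusion, cells are starved of oxygen and glucose and then returned to normal conditions. The members were chosen by gene symbol, with earlier results of these data known: 14 subunits of the 20S core, 18 subunits of the 19S regulatory particle and 3 chaperones of core assembly. All 35 had a row among the 17104 genes of the count table. OGD/R was followed by a small and broad rise. Of the 35 genes, 30 rose, 0 fell and 5 did not pass the test. The fold changes of the 30 ran from 1.12 to 1.44.

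The 20S core is a barrel of 4 stacked rings, in which the beta subunits cut proteins and the outer alpha rings gate the entrance. The 19S particle caps the barrel: its lid removes ubiquitin, and its base binds ubiquitin chains and unfolds the substrate with a ring of ATPases. When proteasome activity falls short, the membrane-bound transcription factor NFE2L1 is freed, cleaved by DDI2 and carried to the nucleus, where it switches on proteasome genes through antioxidant response elements. In endothelial cells the proteasome is known for degrading the inhibitor of NF-kappaB and the oxygen-labile HIF alpha subunits.

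RNA-seq counts of 6 libraries were compared: 3 control libraries (CON, cells cultured under normal conditions) and 3 libraries labelled OGD (OGD/R). All 6 come from the same line, labelled as endothelial cells from brain, and no transgene or drug is named. The durations of deprivation and reperfusion are not stated. Whether each library came from its own culture is not labelled. The p-values speak only of the spread among these libraries, and part of that may be technical. In bulk RNA, fewer cells of a type and less RNA per cell cannot be told apart.

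Levels are counts per 1000000 counts of the library (CPM), after trimmed-mean (TMM) scaling. A difference is a log2 fold change, OGD/R over control, with its standard error (SE). The SE was derived from the test named below, as the absolute log2 fold change over the square root of its F statistic. The table names genes by Ensembl ID, given at each member shown by library. A gene rose or fell where the adjusted p of edgeR's quasi-likelihood test, by Benjamini-Hochberg over all 17104 genes, was under 0.05.

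Library totals ran from 31048662 to 34484647 counts, and libraries of 1 group differed from each other by less than those of different groups (chi-square over its degrees of freedom 4.04 to 7.58 within groups, 16.6 to 24.5 across). The labelled cell type was checked against its markers. Of 12 endothelial markers 4 had a row (CDH5, ESAM, ROBO4 and EGFL7), with a summed level of 198 to 215 CPM in control and 203 to 210.4 CPM after OGD/R. PECAM1, VWF, CLDN5, KDR, TEK, TIE1, ERG and EMCN had none. Of the 4, CDH5 rose and ROBO4 fell. Of 10 epithelial markers 8 had a row, led by KRT8 at 1235 ± 68.2 CPM (SD, n = 3) in control, and their sum was 2485 to 2711 CPM in control and 3048 to 3104 CPM after OGD/R. KRT8, KRT18 and KRT7 made up most of that sum, and these 3 and ELF3 rose. KRT19 and GRHL2 had no row. EPCAM (log2 fold change 0.14), CDH1 (−0.28), CLDN4 (−0.25) and ESRP1 (−0.18) did not pass. Their control means were 52.3, 1.19, 21.2 and 42.2 CPM, so CDH1 was barely measured. ESRP1 fell with the length and GC correction described below (−0.20, adjusted p = 0.0218 by edgeR). These marker levels leave the endothelial label uncertain, and the identity of the line was not tested. The part of these markers in the results below was not tested.

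The promoters of a few members are shown first, because the proteasome genes are known as targets of NFE2L1 and are here read as a group. Of the 35 members, 30 had a promoter window in the RefSeq table (GRCh38.p14; 250 bases before to 50 after an annotated start; 38 windows, since some genes have several starts). TGACNNNGC, the core of the antioxidant response element, was searched on both strands, with overlap between motifs allowed, and matched in 10 of the 30 genes: PSMA4, PSMB3, PSMC4, PSMC5, PSMD1, ADRM1, PSMD3, PSMD12, PSMG1 and PSMG2. Such a match was in 28.95% of the members' windows, in 14.38% of the 16640 windows of genes tested here and in 13.35% of all 35116 windows. Windows of 1 gene can overlap, and the 2 ADRM1 windows hold the same site, which counts in both. CCAAT, the box bound by NF-Y, matched in 17 of the 30 genes and 47.37% of the members' windows, against 34.27% of the windows of tested genes. Matches of 4 members that lie upstream of the start and outside every annotated exon are printed 5′ to 3′ on the gene's strand, with TGACNNNGC in capitals.
PSMB3 (chr17:38752627-38752655, plus strand): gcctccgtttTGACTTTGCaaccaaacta
ADRM1 (chr20:62302749-62302777, plus strand): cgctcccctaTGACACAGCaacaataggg
PSMD3 (chr17:39980760-39980788, plus strand): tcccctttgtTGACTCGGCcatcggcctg
PSMD12 (chr17:67366724-67366752, minus strand): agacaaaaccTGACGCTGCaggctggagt
Of these 4 members, PSMB3, PSMD3 and PSMD12 rose and ADRM1 did not pass. Longer stretches of 200 bases are printed for PSMB3 and PSMC3, the 2 members with the largest log2 fold changes, with TGACNNNGC and CCAAT in capitals. Both end before the first annotated exon.
PSMB3 (chr17:38752536-38752735, plus strand): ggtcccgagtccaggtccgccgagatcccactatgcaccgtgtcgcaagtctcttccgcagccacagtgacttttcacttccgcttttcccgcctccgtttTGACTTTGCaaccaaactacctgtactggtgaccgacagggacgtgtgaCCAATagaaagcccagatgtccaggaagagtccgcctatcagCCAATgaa
PSMC3 (chr11:47426474-47426673, minus strand): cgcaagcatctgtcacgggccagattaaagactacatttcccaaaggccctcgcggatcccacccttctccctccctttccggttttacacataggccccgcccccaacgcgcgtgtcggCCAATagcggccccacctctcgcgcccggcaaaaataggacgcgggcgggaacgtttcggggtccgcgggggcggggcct
PSMB3 holds 1 TGACNNNGC and 2 CCAAT boxes in its stretch. PSMC3 holds 1 CCAAT box and no TGACNNNGC, so the 2 members that rose most differ in these letters. Among members with a window, TGACNNNGC matched in 8 of the 25 that rose and in 2 of the 5 that did not pass, ADRM1 and PSMG1. CCAAT matched in 13 of the 25 that rose and in 4 of the 5 that did not pass. A match is a description of the letters and not of binding.

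Taken as a sum, the 35 genes stood at 4011, 4352 and 4059 CPM in control and 5008, 5223 and 5277 CPM after OGD/R, and the groups did not overlap. Among all genes tested, 10.2% rose and 9.48% fell. Among protein-coding genes of at least 10 CPM in control, which are closer to the members in level, 16.2% rose and 14.3% fell, against the members' 85.7% and 0%. The members' median log2 fold change was 0.32 (range −0.29 to 0.53, 34 of 35 above 0), beside a median of −0.0046 over all genes. In 32 of the 35 members every OGD/R library was above every control library, which held for 16.4% of all genes. The exceptions were PSMA6, PSMB7 and PSMG1. No member was lower at an unadjusted p under 0.05 in edgeR (0 of 35), and 0 fell in DESeq2 or limma-voom, which each called 30 higher.

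**Figure D1:**
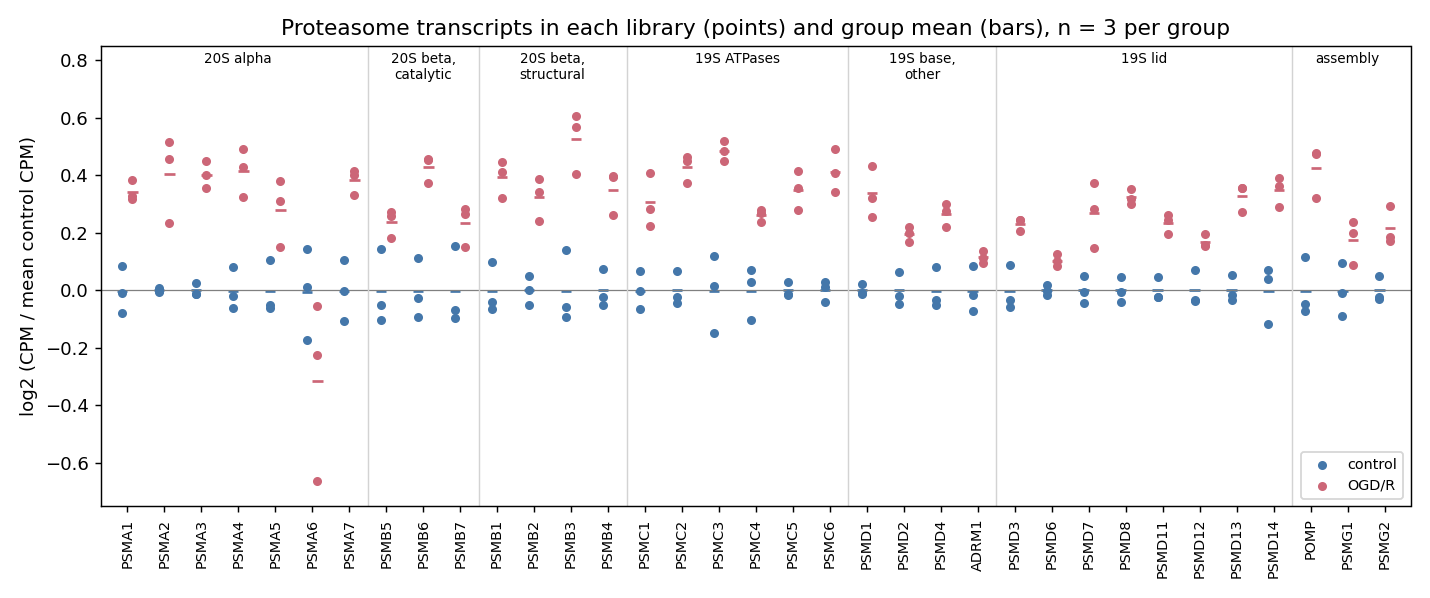
Level of each of the 35 members in each of the 6 libraries, grouped by role, as log2 of its CPM over the gene's control mean (1 point per library, bars for group means). All OGD/R points lie above all control points in 32 members, and the groups overlap for PSMA6, PSMB7 and PSMG1.

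The libraries of 1 group also differed from each other in a way many members shared. Control replicate 2 was the highest control in 28 of the 35 members (80.0%, against 34.1% of all genes), and OGD/R replicate 1 was the lowest of its group in 27 (77.1%, against 34.1%). Members of 1 library thus moved together, and the 35 genes are not 35 separate tests of the treatment. Without control replicate 2 the number that rose was 32, and without OGD/R replicate 1 it was 31.

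The 7 alpha subunits form the outer rings of the core, and 5 of them rose, with a role median of 0.38. PSMA7 was the most abundant member per length. The level of PSMA7 (ENSG00000101182) was 286, 331 and 308 CPM in control and 388, 407 and 411 CPM after OGD/R. The groups did not overlap, and the log2 fold change was 0.38 ± 0.04 (SE, adjusted p = 2.72e-09 by edgeR). For PSMA4 (ENSG00000041357), control libraries gave 146, 157 and 142 CPM and OGD/R libraries 186, 199.8 and 209 CPM. Every OGD/R library exceeded every control for PSMA4 as well, which rose by 0.42 ± 0.05 (SE, adjusted p = 1.09e-09 by edgeR). Control libraries held PSMA3 (ENSG00000100567) at 105, 107 and 104 CPM, and OGD/R libraries at 135, 144 and 139 CPM. PSMA3, whose product also has a role in ubiquitin-independent turnover, rose by 0.40 ± 0.05 (SE, adjusted p = 2.06e-09 by edgeR). PSMA5 rose by 0.28 ± 0.05 (SE, adjusted p = 6.54e-05 by edgeR) and PSMA1 by 0.34 ± 0.10 (SE, adjusted p = 0.00844 by edgeR). PSMA1 (ENSG00000129084) stood at 13.2, 13.8 and 14.8 CPM in the 3 control libraries and at 17.4, 18.2 and 17.5 CPM in the 3 OGD/R libraries.

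The remaining alpha genes, PSMA2 and PSMA6, did not pass. The level of PSMA2 (ENSG00000106588) was 1.84, 1.82 and 1.82 CPM in control and 2.51, 2.61 and 2.15 CPM after OGD/R. Its groups did not overlap, but the SE was wide (0.41 ± 0.25 SE, adjusted p = 0.282 by edgeR). For PSMA6 (ENSG00000100902), control libraries gave 3.49, 3.96 and 4.35 CPM and OGD/R libraries 2.48, 3.36 and 3.79 CPM. PSMA6 had the only log2 fold change below 0 among the members, −0.29 ± 0.20 (SE, adjusted p = 0.355 by edgeR), and its groups overlapped.

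The low level of these genes goes with the annotation around them. Per kilobase of principal transcript (APPRIS principal isoform in GENCODE release 29), the lowest members in control were PSMA2 at 1.23, PSMA6 at 3.82 and PSMA1 at 9.27 CPM per kb, while the other 32 ran from 11.8 for PSMC1 to 309 for PSMA7. These same 3 members are the ones whose principal transcript lies by over 40% inside an annotated readthrough gene on the same strand: 53.2% for PSMA1, 52.5% for PSMA2 and 81.0% for PSMA6. The readthrough genes have no row in the table and are not analysed here. How the authors' counting treated reads that fall in more than 1 gene is not stated, and the part of this overlap in the levels was not tested. The overlap was looked up after the levels were seen. The values of PSMA1, PSMA2 and PSMA6 are therefore uncertain as levels of the whole gene. PSMC1 and PSMD7 lie by 82.1% and 50.4% over genes on the opposite strand, and whether the counting used strand is not given. Pseudogenes named after a member, whose reads the counting could share with it, number 13 for PSMC1, 4 for PSMA6, 3 for PSMA2 and 1 each for PSMA3, PSMB3, PSMB7, PSMD4, PSMD7, PSMD8 and PSMD12.

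**Figure D2:**
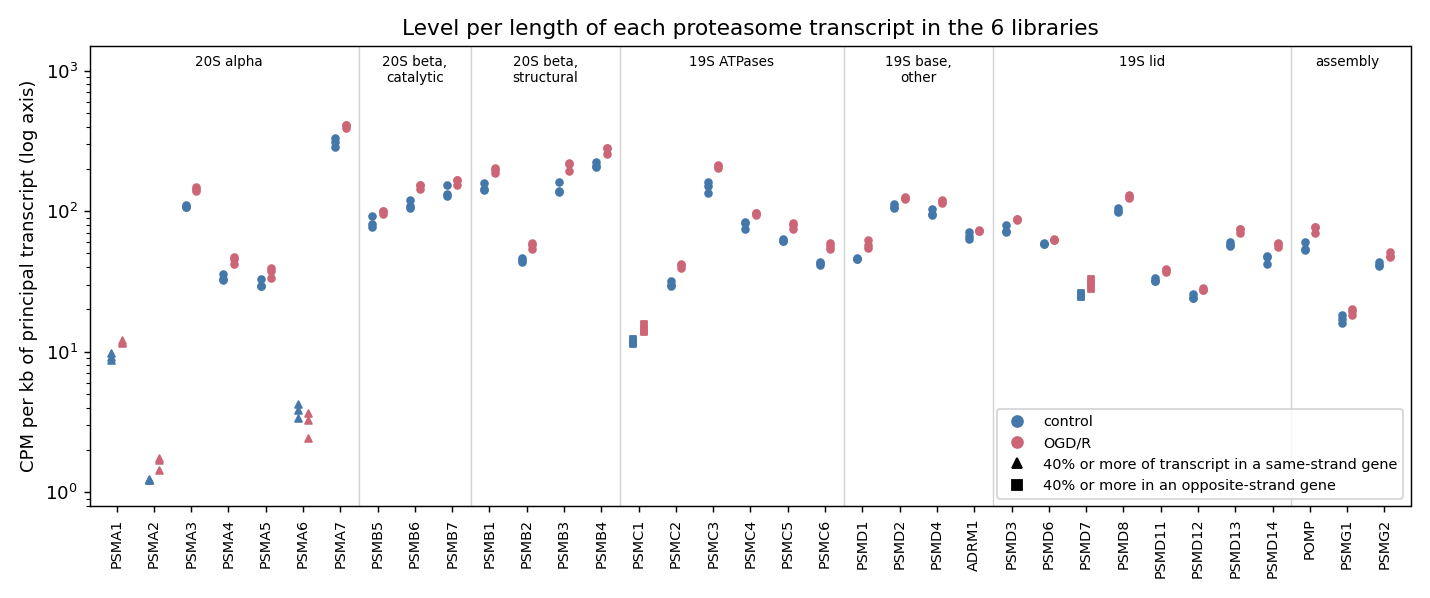
Control and OGD/R level of each member in CPM per kilobase of its principal transcript, on a log axis, with 1 point per library and triangles or squares for members that overlap other genes. PSMA2, PSMA6 and PSMA1 sit below 10 CPM per kb in control, and the other 32 members lie above 11 CPM per kb.

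The beta ring holds the active sites. All 3 catalytic subunits rose, with a role median of 0.24. PSMB5 carries the chymotrypsin-like site. Control libraries held PSMB5 (ENSG00000100804) at 104, 119 and 101 CPM, and OGD/R libraries at 123, 129 and 131 CPM. The groups did not overlap and PSMB5 rose by 0.24 ± 0.05 (SE, adjusted p = 0.000465 by edgeR). PSMB6 carries the caspase-like site. PSMB6 (ENSG00000142507) stood at 89.0, 102 and 93.2 CPM in the 3 control libraries and at 123, 129.9 and 130.1 CPM in the 3 OGD/R libraries. Its log2 fold change was 0.43 ± 0.05 (SE, adjusted p = 3.87e-09 by edgeR). PSMB7 carries the trypsin-like site. The level of PSMB7 (ENSG00000136930) was 126, 150.0 and 129 CPM in control and 149.8, 162 and 164 CPM after OGD/R. Control replicate 2 was just above OGD/R replicate 1 for PSMB7, which rose by 0.23 ± 0.05 (SE, adjusted p = 0.00114 by edgeR). With the length and GC correction described below, PSMB7 did not pass (0.07, adjusted p = 0.227 by edgeR) and 2 of the 3 catalytic subunits rose.

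All 4 structural beta subunits rose, with a role median of 0.37. PSMB3 had the largest fold of all members. For PSMB3 (ENSG00000277791), control libraries gave 105, 124 and 108 CPM and OGD/R libraries 149, 166 and 171 CPM. No control library reached the OGD/R libraries, and the gene rose 1.44-fold (log2 0.53 ± 0.06 SE, adjusted p = 2.98e-08 by edgeR). PSMB1 rose by 0.39 ± 0.05 (SE, adjusted p = 5.77e-09 by edgeR), PSMB4 by 0.35 ± 0.04 (SE, adjusted p = 2.07e-08 by edgeR) and PSMB2 by 0.32 ± 0.05 (SE, adjusted p = 4.80e-07 by edgeR). The last 2 stood at 205 ± 9.35 and 122 ± 4.34 CPM in control.

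The 6 ATPases of the base unfold the substrate and thread it into the core. All 6 rose, with a role median of 0.38, and in each of them the groups did not overlap. Control libraries held PSMC3 (ENSG00000165916) at 212, 256 and 238 CPM, and OGD/R libraries at 321, 329 and 337 CPM. PSMC3 rose by 0.48 ± 0.05 (SE, adjusted p = 2.73e-10 by edgeR), the second largest fold among the members. PSMC2 rose by 0.43 ± 0.05 (SE, adjusted p = 1.41e-09 by edgeR) and PSMC6 by 0.41 ± 0.05 (SE, adjusted p = 4.55e-09 by edgeR). PSMC5, PSMC1 and PSMC4 rose by 0.35, 0.31 and 0.26 on the log2 scale, from control means of 97.9 ± 1.77, 52.5 ± 2.46 and 128 ± 7.80 CPM.

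The other 4 base subunits are scaffolds and receptors for ubiquitin, and 3 of them rose, with a role median of 0.23. PSMD1 and PSMD2 are the large scaffolds on which shuttle factors and deubiquitinases dock. PSMD2 (ENSG00000175166) stood at 360.5, 389 and 367 CPM in the 3 control libraries and at 427, 434 and 418 CPM in the 3 OGD/R libraries. PSMD2 rose by 0.20 ± 0.04 (SE, adjusted p = 0.000284 by edgeR). PSMD1, with the same kind of repeat fold, rose by 0.34 ± 0.05 (SE, adjusted p = 9.00e-08 by edgeR), and PSMD4, a ubiquitin receptor, by 0.27 ± 0.05 (SE, adjusted p = 1.50e-05 by edgeR). ADRM1 is the receptor to which the deubiquitinase UCHL5 binds. The level of ADRM1 (ENSG00000130706) was 97.5, 109 and 101 CPM in control and 111, 113 and 109.7 CPM after OGD/R. The ADRM1 groups did not overlap, with the top control only just below the lowest OGD/R library, but the log2 fold change of 0.11 ± 0.05 (SE, adjusted p = 0.0927 by edgeR) did not pass. Without control replicate 2 ADRM1 passed (log2 fold change 0.16, adjusted p = 0.0182 by edgeR).

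The lid carries PSMD14, the metalloprotease that cuts ubiquitin from the substrate as it is engaged, and its partner PSMD7. The other 6 lid subunits among the members, PSMD3, PSMD6, PSMD8, PSMD11, PSMD12 and PSMD13, are structural and share a scaffold domain. The small subunit SEM1 is not a member and is read with the other lists below. Of the 8 lid genes among the members 7 rose, with a role median of 0.25. For PSMD14 (ENSG00000115233), control libraries gave 91.4, 93.4 and 82.0 CPM and OGD/R libraries 109, 117 and 114 CPM. PSMD14 rose by 0.35 ± 0.05 (SE, adjusted p = 7.24e-07 by edgeR), with no overlap between the groups. PSMD13 rose by 0.33 ± 0.05 (SE, adjusted p = 2.40e-07 by edgeR) and PSMD8 by 0.32 ± 0.04 (SE, adjusted p = 8.78e-08 by edgeR). PSMD7, PSMD11 and PSMD3 rose by 0.27, 0.23 and 0.23 on the log2 scale. PSMD12 showed the smallest change that passed. Control libraries held PSMD12 (ENSG00000197170) at 114, 106 and 106 CPM, and OGD/R libraries at 121, 125 and 121 CPM. Its log2 fold change was 0.17 ± 0.05 (SE, adjusted p = 0.00676 by edgeR), and without OGD/R replicate 2 it no longer passed (0.16, adjusted p = 0.0527 by edgeR). PSMD6 (ENSG00000163636) stood at 84.8, 83.7 and 82.8 CPM in the 3 control libraries and at 88.7, 89.8 and 91.3 CPM in the 3 OGD/R libraries. The PSMD6 groups did not overlap and were tight, yet the difference of 0.10 ± 0.05 (SE, adjusted p = 0.152 by edgeR) did not pass.

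Core assembly is guided by chaperones, and 3 of them are members. The assembly factors PSMG3 and PSMG4 are read with the other lists below. POMP brings the beta rings together on the alpha ring and is the first substrate of the finished core. The level of POMP (ENSG00000132963) was 70.4, 80.2 and 71.5 CPM in control and 92.4, 103 and 103 CPM after OGD/R. POMP rose by 0.43 ± 0.05 (SE, adjusted p = 4.51e-08 by edgeR). PSMG1 and PSMG2 form a dimer that builds the alpha ring. PSMG2 rose by 0.22 ± 0.05 (SE, adjusted p = 0.00212 by edgeR). For PSMG1 (ENSG00000183527), control libraries gave 34.5, 39.3 and 36.5 CPM and OGD/R libraries 39.1, 43.4 and 42.2 CPM. The PSMG1 groups overlapped by a small margin, with control replicate 2 above OGD/R replicate 1, and the difference of 0.17 ± 0.07 (SE, adjusted p = 0.0691 by edgeR) did not pass. It did pass without control replicate 2 (0.23, adjusted p = 0.0247 by edgeR) and without OGD/R replicate 1 (0.22, adjusted p = 0.0401 by edgeR).

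**Figure D3:**
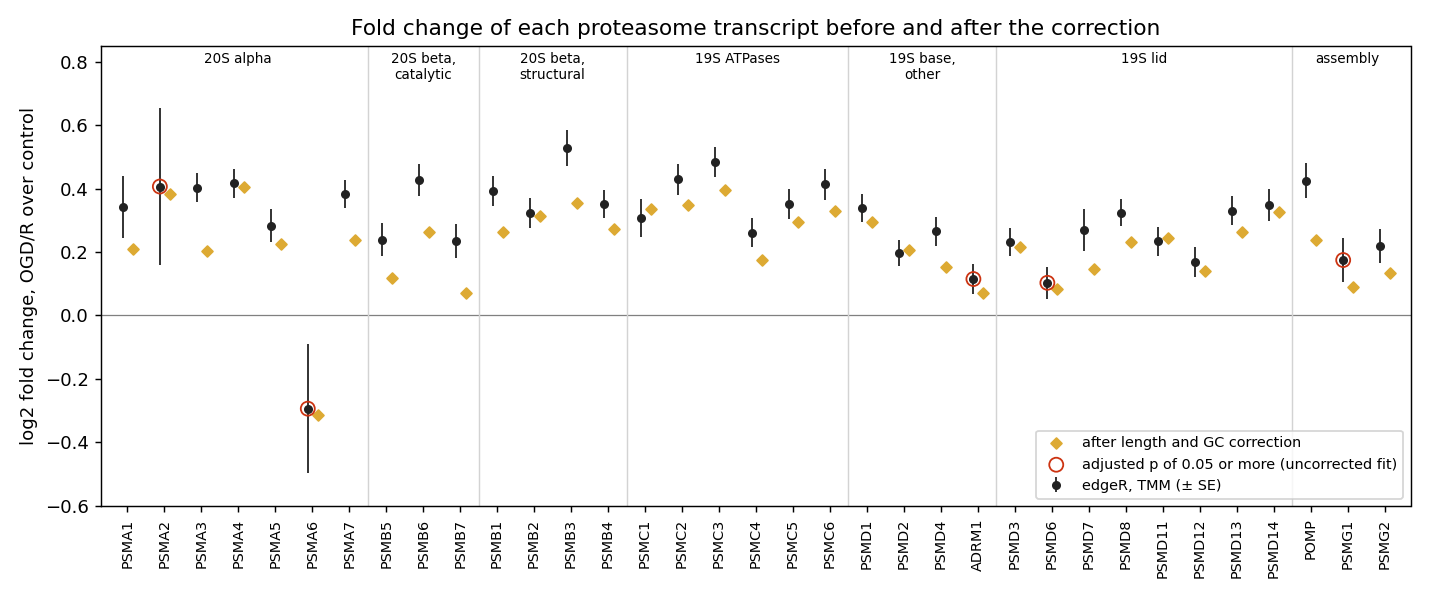
Log2 fold change of each member, OGD/R over control, with its SE, ordered by role, as fitted by edgeR (circles) and after correction for transcript length and GC content (diamonds). The 30 members that rose lie between 0.17 and 0.53, and PSMA6 is the only member below 0 as fitted.

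Transcript length moved with the contrast across the whole table. Protein-coding genes above a cutoff on mean CPM were grouped into 10 bins of 1081 to 1087 genes by principal transcript length. The median log2 fold change went from 0.14 in the shortest bin (207 to 1446 bases) to −0.11 in the longest. Each library's deviation from the mean was set against the length of a gene's longest transcript. The rank correlations were 0.44, 0.04 and 0.29 in the controls and −0.28, −0.33 and −0.23 in the OGD/R libraries (10848 genes, which are not independent). Control replicate 2, the highest control in most members, thus had the correlation nearest to 0. The members are short, with a median principal transcript of 1580 bases against 3160 over all genes. In the length and GC correction, length and GC content of the longest transcript were fitted as library-specific trends. With it 27 members rose (10.4% of all genes did), 0 fell and the median was 0.24. PSMA1 (0.21, adjusted p = 0.124), PSMB7 (0.07, adjusted p = 0.227) and PSMD7 (0.15, adjusted p = 0.0778) no longer passed edgeR's test. The role medians went from 0.38 to 0.23 for the alpha subunits, from 0.24 to 0.12 for the catalytic and from 0.37 to 0.29 for the structural beta subunits. They went from 0.38 to 0.33 for the ATPases, from 0.23 to 0.18 for the other base subunits and from 0.25 to 0.22 for the lid. For the assembly chaperones the median went from 0.22 to 0.13. With the correction on the principal transcript instead, 28 members rose, and PSMD7 passed (0.17, adjusted p = 0.0364 by edgeR). Among the members, the rank correlation of the log2 fold change with principal transcript length was −0.24, and with the control level per kb 0.27 (n = 35 genes of the same 6 libraries, a description). What made length and treatment move together was not tested.

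**Figure D4:**
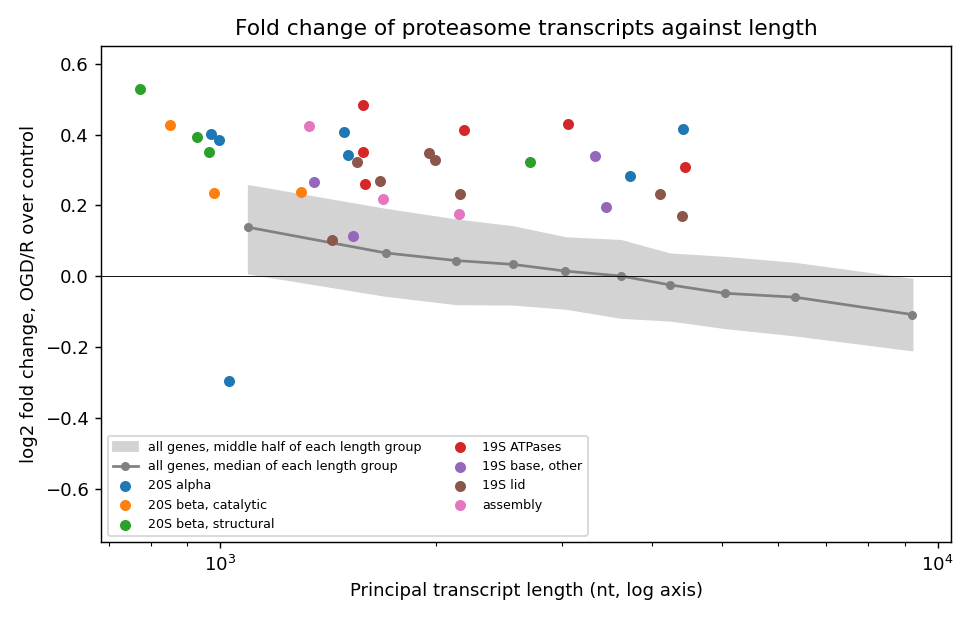
Log2 fold change, OGD/R over control, against principal transcript length in bases (log axis): median and middle 50% of genes in 10 length bins, with the 35 members as points. Most members lie above the median of genes of their own length, which falls from 0.14 to −0.11 from the shortest to the longest bin.

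The rest of the pathway was read from 7 lists of 46 genes, 13 of which rose and 6 fell (28.3% and 13.0%). Among all genes tested these shares were 10.2% and 9.48%, and among protein-coding genes of at least 10 CPM in control 16.2% and 14.3%. With the length and GC correction 15 of the 46 rose and 2 fell, against 1773 and 1531 of all 17104 genes. Of the 9 other assembly factors and minor subunits 2 rose, PSMD10 (0.31 ± 0.06 SE, adjusted p = 0.000185 by edgeR) and PAAF1 (0.28 ± 0.09 SE, adjusted p = 0.0212 by edgeR), both chaperones of the base. PSMD10 passed with the correction on the principal transcript (0.17, adjusted p = 0.0236 by edgeR). It missed the threshold with the length and GC correction (0.15, adjusted p = 0.0533 by edgeR). PAAF1 missed it without control replicate 3 (adjusted p = 0.107), OGD/R replicate 1 (0.117) or OGD/R replicate 2 (0.0567). The other 7, among them PSMG3 (−0.08, adjusted p = 0.556 by edgeR), PSMG4 (−0.09, adjusted p = 0.640), PSMD5 and SEM1, did not pass, and none fell at the threshold. Of the 9 genes, 6 had a log2 fold change above 0. Among the 7, SEM1 passed without OGD/R replicate 1 (0.36, adjusted p = 0.000198 by edgeR) and with replicate number as a block in the fit (0.22, adjusted p = 0.0105). IPO9, an import receptor, passed with the length and GC correction (0.13, adjusted p = 0.0079 by edgeR). Of the 6 deubiquitinases and ligases that ride on the proteasome, UCHL5, the partner of ADRM1, rose by 0.24 ± 0.06 (SE, adjusted p = 0.00233 by edgeR). HUWE1 fell by 0.12 and UBR4 by 0.12 on the log2 scale (adjusted p 0.0218 and 0.0277 by edgeR). Neither passed without control replicate 3, OGD/R replicate 1 or OGD/R replicate 2 (adjusted p 0.1002 to 0.126 for HUWE1 and 0.1100 to 0.183 for UBR4 by edgeR), and HUWE1 did not without control replicate 1 (0.123). Both are very long transcripts, and with the length and GC correction their log2 fold changes were 0.04 and 0.05. USP14 did not pass (0.09 ± 0.04 SE, adjusted p = 0.163 by edgeR).

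Among the genes that encode ubiquitin, UBB rose. Control libraries held UBB (ENSG00000170315) at 162, 184 and 167 CPM, and OGD/R libraries at 209, 229.7 and 226 CPM. UBB, a polyubiquitin gene known to respond to stress, rose by 0.37 ± 0.05 (SE, adjusted p = 1.68e-08 by edgeR), with no overlap between the groups. Among 10 shuttle factors and parts of the p97 segregase, which pulls ubiquitylated proteins out of membranes and complexes, 3 rose and 1 fell. Over all genes tested the shares were 10.2% and 9.48%. VCP (ENSG00000165280) stood at 524, 538 and 528 CPM in the 3 control libraries and at 641, 626 and 634 CPM in the 3 OGD/R libraries. VCP, the p97 ATPase itself, rose by 0.26 ± 0.04 (SE, adjusted p = 1.32e-06 by edgeR). Its cofactor NSFL1C rose by 0.29 ± 0.05 (SE, adjusted p = 4.74e-06 by edgeR), and the shuttle factor RAD23B, named after its value was seen, by 0.12 ± 0.04 (SE, adjusted p = 0.0343 by edgeR). RAD23B missed the threshold under total-count scaling (adjusted p = 0.137 by edgeR) and when any library other than control replicate 2 was left out (adjusted p 0.0520 to 0.216). UFD1, another cofactor of VCP, did not pass (0.11 ± 0.05 SE, adjusted p = 0.135 by edgeR). It did with the length and GC correction (0.15, adjusted p = 0.0212 by edgeR) and without control replicate 2 (0.16, adjusted p = 0.0400). With the correction on the principal transcript UFD1 did not pass (0.03, adjusted p = 0.736 by edgeR).

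The factors that control proteasome transcription included NFE2L1, which fell. The level of NFE2L1 (ENSG00000082641) was 294, 309 and 312 CPM in control and 234, 229 and 231 CPM after OGD/R. NFE2L1 fell by 0.40 on the log2 scale (SE 0.04, adjusted p = 1.36e-10 by edgeR), with every OGD/R library below every control. The correction for length and GC content left its log2 fold change at −0.34. MAFG, a small MAF protein that pairs with NFE2L1 on DNA, fell by 0.25 (adjusted p = 7.06e-05 by edgeR). DDI2, the protease that cleaves NFE2L1, fell by 0.24 (adjusted p = 0.00648), but not past edgeR's threshold after the correction (−0.14, adjusted p = 0.114) or without control replicate 1 (−0.19, adjusted p = 0.0523). Of the 9 genes in this list, 4 fell and 1 rose (44.4% and 11.1%, against 9.48% and 10.2% of all genes). The other 2 that passed, named after their values were seen, were MAFK (−0.20 ± 0.07 SE, adjusted p = 0.0241 by edgeR) and NFE2L3 (0.19 ± 0.06 SE, adjusted p = 0.0353 by edgeR). With the length and GC correction 2 of the list fell, NFE2L1 and MAFG, and MAFK did not (−0.15, adjusted p = 0.0618 by edgeR). MAFK also missed the threshold without control replicate 2, control replicate 3, OGD/R replicate 2 or OGD/R replicate 3 (adjusted p 0.0995 to 0.160). NFE2L3 missed it under total-count scaling (adjusted p = 0.0878) and without control replicate 2, control replicate 3, OGD/R replicate 1 or OGD/R replicate 3 (adjusted p 0.0711 to 0.139). NFE2L1 is activated by processing of its protein, which RNA levels do not measure.

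Of the 6 alternative caps and inhibitors 2 rose, PSME2 (0.45 ± 0.05 SE, adjusted p = 2.15e-10 by edgeR) and PSME1 (0.28 ± 0.04 SE, adjusted p = 2.10e-06 by edgeR), which together form the 11S cap. PSME3, PSME4, PSMF1 and ECPAS did not pass. PSME4 passed with the length and GC correction (0.12, adjusted p = 0.0156 by edgeR), and PSMF1 with the correction on the principal transcript (0.11, adjusted p = 0.0311). The inducible catalytic subunits replace the constitutive ones in the immunoproteasome, and 2 of 3 rose. Among all genes tested 10.2% rose. For PSMB9 (ENSG00000240065), control libraries gave 21.5, 24.7 and 21.9 CPM and OGD/R libraries 37.5, 41.7 and 44.6 CPM. PSMB9 rose by 0.86 ± 0.08 (SE, adjusted p = 3.37e-12 by edgeR), beside 0.53 for PSMB3, the largest value among the constitutive members. PSMB8 rose by 0.26 ± 0.06 (SE, adjusted p = 0.00209 by edgeR), though not past the threshold with the correction on the principal transcript (0.14, adjusted p = 0.0710 by edgeR), and PSMB10 did not pass (0.19 ± 0.11 SE, adjusted p = 0.224 by edgeR). The principal transcript of PSMB10 lies by 45.3% inside a same-strand readthrough gene, so its level is uncertain.

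Each inducible subunit was set against the constitutive subunit whose place it takes, as a ratio of counts within a library. The PSMB9 to PSMB6 ratio was 0.241, 0.242 and 0.235 in control and 0.305, 0.321 and 0.343 after OGD/R. All OGD/R ratios were above all control ratios, a log2 difference of 0.43 (exact two-sided permutation test p = 0.1, the smallest that 3 against 3 allows; 0.3 adjusted over the 3 ratios). The PSMB8 to PSMB5 ratio was 0.403, 0.395 and 0.425 in control and 0.430, 0.394 and 0.413 after OGD/R, and the groups overlapped (log2 difference 0.02, exact permutation p = 0.8, adjusted 0.8). The PSMB10 to PSMB7 ratio overlapped too, at 0.0876, 0.1002 and 0.1036 against 0.101, 0.0947 and 0.0891 (log2 difference −0.03, exact permutation p = 0.8, adjusted 0.8).

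**Figure D5:**
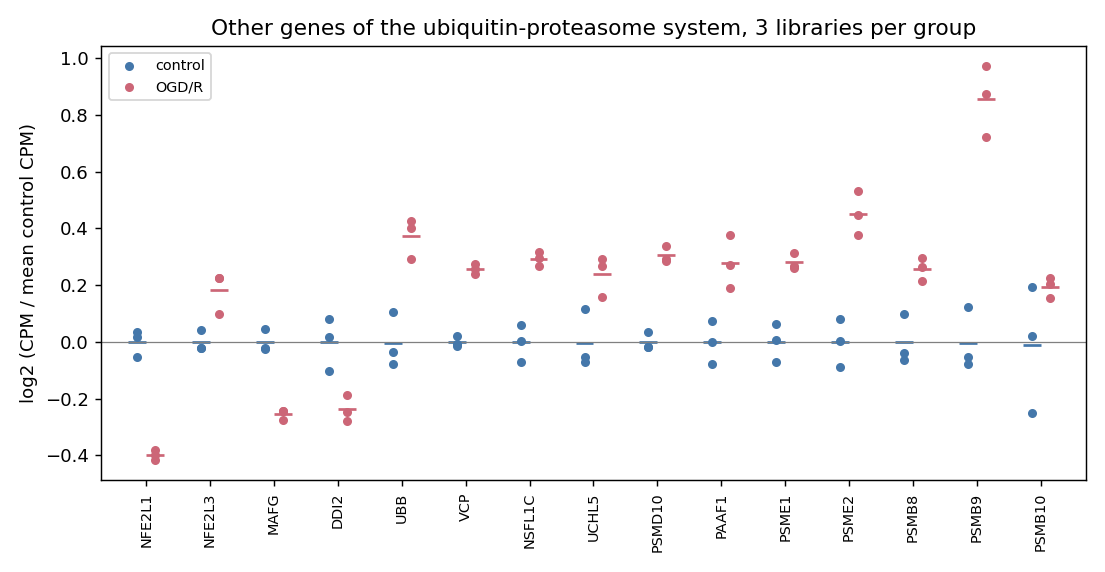
Level of 15 genes outside the constitutive proteasome in each of the 6 libraries, as log2 of CPM over the gene's control mean (1 point per library, bars for group means). The OGD/R libraries of NFE2L1, MAFG and DDI2 lie below their controls, and those of PSMB9 lie furthest above, around a log2 fold change of 0.86.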

How the data were processed

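HBMEC RNA was sequenced in 3 control and 3 OGD/R libraries. The deposited table holds whole-number counts per human Ensembl gene, and all 6 columns were used. Per the submitters' processing notes, the authors used Trimmomatic, HISAT2, SAMtools, featureCounts and edgeR, without versions. The notes name the mouse build GRCm38, while the gene IDs are human, so the build is uncertain. Strand setting and the handling of reads shared between genes are not given in the sources used here. Each gene listed reaches 10 counts in 3 or more libraries, and genes below that are not analysed here.

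The counts were fitted with edgeR 4.0.16 (R 4.3.3; TMM scaling, robust quasi-likelihood test, group as the only term). filterByExpr with a minimum count of 10 removed 0 genes. P-values were two-sided and adjusted by Benjamini-Hochberg over 17104 genes. The common BCV (the between-library coefficient of variation) was 6.26%. Symbols matched 17093 IDs. Lengths and overlaps came from GENCODE release 29, and promoters from RefSeq. Length and GC trends were fitted per library on 10848 genes with mean log2 CPM above 2 (mgcv) and entered as offsets. The fits were also run on simulated data. Where a length trend was simulated, it was the same in all OGD/R libraries and absent from the controls, without a GC trend. In these data the controls differed in their length trend. The simulation thus cannot tell how well the correction worked here.

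The members and lists were chosen with earlier results of these data known. All members are named. From each other list, the genes passing the test were named, at most the 3 with the smallest p, with NFE2L1, PSMB8, PSMB9 and PSMB10 in any case. Some genes of the ubiquitin list are not reported here. Alternatives were DESeq2 1.42.0, limma-voom 3.58.1, other scalings and filters, each library left out, a replicate block and the 2 length corrections, of which the one on the principal transcript was chosen after seeing the data.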

Additional observations from a re-analysis of the deposited data

How the results depend on the processing

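The number of members that rose was 30 with DESeq2, limma-voom, RLE scaling, upper-quartile scaling, total-count scaling, no filter (the same genes), a 1 CPM filter and the replicate block. It was 27 with the length and GC correction and 28 with the correction on the principal transcript, each with and without the replicate block. Leaving out 1 library gave 29 to 32. In all of these 0 members fell. The members' median log2 fold change was 0.24 under each of the 4 length-corrected fits (0.237 and 0.238 on the longest transcript without and with the block, 0.242 and 0.243 on the principal transcript) and 0.29 to 0.35 with 1 library left out. Of the 35 members, 28 kept their call and direction in every alternative. PSMD6 turned to −0.01 (−0.0115 and −0.0116) with the correction on the principal transcript, without and with the block. HUWE1 turned to 0.0372, 0.0373, 0.0398 and 0.0399, and UBR4 to 0.0460, 0.0460, 0.0489 and 0.0489, under the 4 length-corrected fits. With 1 library left out, the genes called lower ranged from 1079 (without control replicate 3) to 1527 over all genes, and the genes called higher from 1293 to 1840. Under total-count scaling 1383 rose and 2098 fell (39.7% of calls higher), against 1749 and 1621 with TMM (51.9%). With 1 library left out, the PSMB9 to PSMB6 difference ran from 0.39 to 0.47, PSMB8 to PSMB5 from −0.0146 to 0.0485 (−0.0069 without control replicate 2, −0.0146 without OGD/R replicate 1) and PSMB10 to PSMB7 from −0.10 to 0.02 (0.0171 without control replicate 3, 0.0139 without OGD/R replicate 3). The cause of these changes was not tested. Same-numbered libraries did not deviate together (correlations −0.00087, 0.0827 and −0.00768 over 11546 genes). The replicate block gave 1827 genes higher and 1702 lower and changed no member's call. At 31048662 to 34484647 counts per library, PSMA2 and PSMA6 had the fewest counts and the widest SEs of the members (0.25 and 0.20).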

Other observations

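The members' promoter windows also held TTCCGG, the core of a site for ETS factors, a motif chosen after the sequences were seen. It matched on either strand in 17 of the 30 members with a window and in 47.37% of their 38 windows, against 25.9% of the windows of tested genes and 17.25% of all windows. The 17 were PSMA6, PSMB5, PSMC1, PSMC2, PSMC3, PSMC5, PSMC6, PSMD2, ADRM1, PSMD6, PSMD7, PSMD8, PSMD11, PSMD12, PSMD13, PSMD14 and POMP. Of the 25 members with a window that rose, 14 held a match, as did 3 of the 5 that did not pass. Among the 6 ATPases, PSMC1, PSMC2, PSMC3, PSMC5 and PSMC6 held it, and PSMC4 did not.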
